A study of Mus musculus with 12 samples.

Results

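Canonical Polycomb repressive complex 1 (PRC1) differs from the other forms of PRC1 by its CBX and PHC subunits. Transcripts of 7 genes for these subunits, Cbx2, Cbx6, Cbx7, Cbx8, Phc1, Phc2 and Phc3, were followed here. They were taken by gene name from the 25759 genes listed for each of 12 RNA-seq libraries, and all 7 were listed in every library and passed the filter on low counts in all 5 comparisons. The question was whether their levels differed between wild-type and Cdk8 mutant mouse embryonic stem cells (ESCs), and whether expression of Xist altered them. All cells were HATX3 ESCs, which carry a doxycycline-inducible Xist allele. Wild-type cells are the parental line, which is polyclonal, and were sampled as replicates 1, 2 and 3. The mutant cells (ΔCdk8, genotype Cdk8-/-) are the single clones 8, 11 and 15, which carry a small deletion over the start codon of Cdk8, the kinase of the mediator complex. Each replicate and clone was sequenced in uninduced conditions and after 48 h of Xist expression, which gives 4 groups of 3 libraries.

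PRC1 adds ubiquitin to histone H2A through a RING1 enzyme. In canonical PRC1 a CBX protein reads the trimethylated lysine of histone H3 that Polycomb repressive complex 2 (PRC2) deposits, and a PHC protein, which can polymerise, links complexes and compacts the chromatin. In the nucleus of female cells both forms of PRC1 gather on the X chromosome that Xist coats. In ESCs Cbx7 is known as the predominant CBX subunit, and Cbx2 and Cbx8 as subunits that gain weight during differentiation.

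The libraries held 22170087 to 60798578 reads on genes. The 10 markers of ESCs fixed for the check were all at a mean of 1 TPM (a level per exon length, scaled within each library) or more in every group, and summed to between 4154 and 7762 TPM. Cdk8 itself did not separate the genotypes, with 51.5 to 74.2 TPM in wild-type and 33.4 to 85.3 TPM in ΔCdk8 libraries. In the paper, Cdk8 protein was undetectable in the clones by western blot, and residual transcript was noted in a single clone by qRT-PCR. Why Cdk8 reads remained was not tested. Wild-type replicate 1 stood apart from replicates 2 and 3 in markers of other cell states. The summed level of 7 markers of the primed epiblast was 723 TPM in it against 1148 and 1322 TPM in uninduced conditions, and that of 6 trophoblast markers 187 TPM against 41.4 and 63.7 TPM. Nothing in the labels says that the wild-type replicates came from separate cultures, and p-values then measure the spread between these samples.

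In uninduced wild-type cells 1 PHC and 1 CBX gene dominated. Phc1 stood at 506±50.9 TPM (mean±s.d., n=3 here and below) and Cbx7 at 101±3.28 TPM. Cbx2 at 32.5±12.9 TPM and Cbx6 at 25.3±6.04 TPM followed, and their libraries overlapped. Phc2 was at 10.8±1.76 TPM, Phc3 at 3.23±0.538 TPM and Cbx8 at 0.59±0.0806 TPM. The ranges of Phc1, Cbx7, Phc2, Phc3 and Cbx8 overlapped neither each other nor those of Cbx2 and Cbx6. In uninduced ΔCdk8 cells Phc1 and Cbx7 also stood first and second, whereas Phc2 (10 to 28.2 TPM) overlapped Cbx2 (25.2 to 29.7 TPM) and Cbx6 (22.9 to 27.9 TPM). Across all 12 libraries Cbx8 rested on 6 to 96 reads per library and Phc1 on 16055 to 67838.

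**Figure D1:**
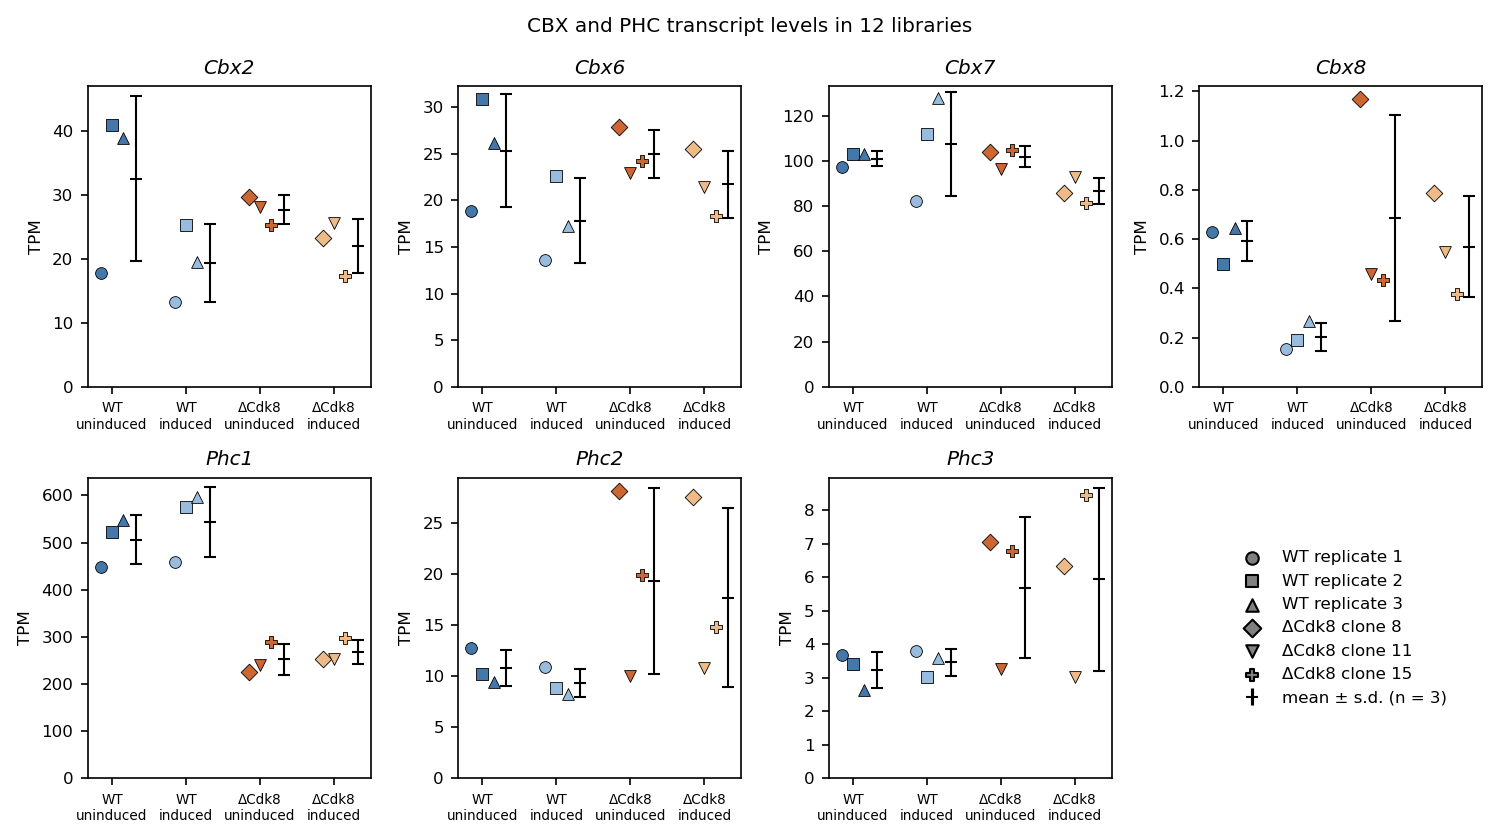
TPM (y axis, from 0, a separate scale per gene) of the 7 genes in the 4 groups (x axis). Each symbol is 1 library, its shape gives the wild-type replicate or ΔCdk8 clone, and bars give the mean and s.d. of 3 libraries. All 6 ΔCdk8 libraries of Phc1 (226 to 297 TPM) lie below all 6 wild-type libraries (449 to 596 TPM), and for Phc2 and Phc3 clones 8 and 15 lie above clone 11 in both states.

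Phc1, the main PHC gene of these cells, was lower in all 3 mutant clones, both without and with Xist expression. In uninduced conditions its level was 449, 523 and 547 TPM in wild-type replicates 1, 2 and 3, and 226, 241 and 290 TPM in clones 8, 11 and 15. After induction it was 458, 576 and 596 TPM in the wild type and 254, 252 and 297 TPM in the clones. The groups overlapped in neither state, and the ratio of the ΔCdk8 to the wild-type mean was 0.498 uninduced and 0.492 induced. Phc1 was 1 of 7 genes without overlap in uninduced conditions, where 23.1% of all tested genes showed none, and 1 of 2 after induction, where 28.7% of all tested genes showed none. All 6 ΔCdk8 libraries lay below all 6 wild-type libraries for Phc1 alone of the 7, and for 2.35% of all tested genes.

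In the edgeR quasi-likelihood fit over all genes, the log2 fold change of Phc1 between ΔCdk8 and wild-type cells was -1.18 (SE 0.15, adjusted p=0.101) uninduced and -1.23 (SE 0.17, adjusted p=0.0528) induced. A gene was called when its change exceeded 2-fold at an adjusted p under 0.01. None of the 7 genes was called by edgeR in either state, and 0% of all tested genes were. With an unadjusted p under 0.05, the counts were 1 of 7 in uninduced conditions, where 20.4% of all genes had such a p, and 2 of 7 after induction, where 25.9% had one. DESeq2 with the same threshold called Phc1 lower in both states (log2 fold change -1.20, SE 0.17, adjusted p=7.93e-09, and -1.24, SE 0.20, adjusted p=1.51e-07). It called 0.833% of all genes lower uninduced (2.64% in either direction) and 1.98% induced (5.81% in either direction), and it called none of the other 6 genes. With all 12 samples in 1 fit, edgeR called Phc1 in the induced comparison too (-1.22, adjusted p=0.00282), and 0.231% of all genes were called lower in that fit. That fit takes the uninduced and induced libraries of a line as independent, although they deviated together. Whether Phc1 passes thus depended on the tool and on the samples in the fit, while its direction was the same in each fit of either state.

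Reads on introns can come from transcripts not yet spliced, and other sources of such reads were not told apart here. Phc1 intron reads, as RPM (reads scaled to each library's total on genes), were 36.8, 56.2 and 64.8 in uninduced wild-type and 20.5, 23.1 and 22.4 in uninduced ΔCdk8 libraries. After induction they were 84, 76.2 and 77.5 in the wild type and 27.1, 21.6 and 33.5 in the clones. The genotypes overlapped in neither state. The log2 fold change of the intron reads in edgeR was -1.55 (SE 0.27, adjusted p=0.103) uninduced and -1.85 (SE 0.22, adjusted p=0.02) induced, so that intron reads and all reads gave the same direction. All Phc1 reads mapped uniquely.

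Phc1 lies on the reverse strand of chromosome 6 of GRCm38, from 122317731 to 122340561. Relative to the mean of uninduced wild-type cells, Phc1 was at a ratio of 0.447, 0.475 and 0.572 in uninduced clones 8, 11 and 15. The 11 expressed genes within 1 Mb had median ratios of 1.39, 0.842 and 1.72 in the same clones, and the 80 within 5 Mb 1.22, 0.697 and 1.24. Over the other 524 expressed genes of chromosome 6 the median ratio was 1.08, 0.663 and 1.03. Phc1 was thus below its neighbours and its chromosome in each clone, and in clone 11 the medians of its neighbours and chromosome were themselves below 1. The 11 genes within 1 Mb also varied in the uninduced wild type, with medians of 1.48, 0.866 and 0.803 in replicates 1, 2 and 3. When each library's Phc1 ratio was divided by the median of the rest of chromosome 6, it was 0.413, 0.717 and 0.553 in uninduced clones 8, 11 and 15 and 0.496, 0.758 and 0.572 after induction. All 6 wild-type libraries (0.887 to 1.27) still lay above all 6 ΔCdk8 libraries. DNA copy number was not measured.

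The primed epiblast markers differed between the genotypes along with Phc1. Their summed level in uninduced conditions was 723 to 1322 TPM in wild-type and 352 to 433 TPM in ΔCdk8 libraries. Most of this sum was Dnmt3b, with a mean of 787 TPM in wild-type and 294 TPM in ΔCdk8 cells. All 7 of 7 markers had an unadjusted p under 0.05 and were lower in ΔCdk8 cells (20.4% of all genes had such a p in either direction), with a median log2 fold change of -2.21 against 0.03 over all genes. DESeq2 called 6 of them lower, against 0.833% of all genes. The largest change was that of Fgf5 (-3.14, SE 0.91, adjusted p=0.163). After induction 6 of 7 had an unadjusted p under 0.05, all lower (25.9% of all genes in either direction), with a median of -1.22, and DESeq2 called 1 lower, against 1.98% of all genes. None of the 7 was at 0 in every library of a group. Of the 10 ESC markers, 2 had an unadjusted p under 0.05 in each state, both higher in ΔCdk8 cells, with a median of 0.30 uninduced and -0.07 induced. Nanog and Tfcp2l1, which encode transcription factors of naive ESCs, did not overlap between the genotypes in either state and were higher in ΔCdk8 cells. Esrrb, another such factor, did not overlap in either state either, but its direction changed. It was higher in ΔCdk8 cells uninduced (121 to 176 against 32.4 to 118 TPM) and lower after induction (157 to 207 against 210 to 247 TPM). No overlap was shown by 23.1% of all tested genes uninduced and by 28.7% after induction. In uninduced conditions Nanog was at 50.2 to 157 TPM in wild-type and 192 to 403 TPM in ΔCdk8 libraries, and Tfcp2l1 at 10 to 39.4 and 76.7 to 102 TPM. The log2 fold change of Tfcp2l1 was 1.88 (SE 0.48, adjusted p=0.147) uninduced and 1.32 (SE 0.20, adjusted p=0.0534) induced, and DESeq2 called it higher in both states, 1 of the 10 markers. Within each state of the wild type, Phc1 and the sum of the primed epiblast markers had the same order over replicates 1, 2 and 3. In clones 8, 11 and 15 this sum was 353, 433 and 352 TPM uninduced and 344, 379 and 344 TPM induced, so that it was highest in clone 11, whereas Phc1 was highest in clone 15. In the wild type after induction the sum was 464, 700 and 815 TPM, below its uninduced value in each replicate, while Phc1 was 1.02, 1.1 and 1.09 times its uninduced level. Of the primitive endoderm and fibroblast markers, 1 of 5 and 0 of 5 tested had an unadjusted p under 0.05 uninduced, and their largest changes were those of Gata4 (2.22, SE 0.67, adjusted p=0.171) and Col1a1 (1.82, SE 0.84, adjusted p=0.264). The part of these markers' cell states in the level of Phc1 was not tested. In bulk RNA, fewer cells of a type and less RNA per cell cannot be told apart.

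The promoter sequences of RefSeq (GRCm38.p6, 250 bases before to 50 bases after the start) held 8 entries for 6 of the 7 genes. Those of Phc1, the gene that was lower in all clones, and of Phc3, which was higher in clones 8 and 15 (below), are shown 5′ to 3′ to set the 2 genes side by side. The Phc1 window is chr6:122340178-122340477 and the Phc3 window chr3:30969366-30969665, both on the reverse strand.
Phc1: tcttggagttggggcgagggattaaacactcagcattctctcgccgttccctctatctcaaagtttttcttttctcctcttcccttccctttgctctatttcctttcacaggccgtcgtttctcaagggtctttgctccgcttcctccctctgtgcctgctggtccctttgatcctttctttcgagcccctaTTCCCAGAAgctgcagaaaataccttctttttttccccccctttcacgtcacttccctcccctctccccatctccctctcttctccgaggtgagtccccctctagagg
Phc3: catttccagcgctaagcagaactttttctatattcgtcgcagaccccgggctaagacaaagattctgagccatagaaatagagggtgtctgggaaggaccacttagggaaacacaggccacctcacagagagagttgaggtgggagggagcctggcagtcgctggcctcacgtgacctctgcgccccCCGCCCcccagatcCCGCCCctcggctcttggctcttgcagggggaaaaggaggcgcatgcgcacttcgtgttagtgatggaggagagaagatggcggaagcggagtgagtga
Capitals mark matches, on either strand, to the GC box GGGCGG bound by SP1-type factors and to TTCNNNGAA, the letters of a STAT motif. The Phc1 window held 1 STAT match and no GC box, 52% G or C and 9 CpG sites, and the Phc3 window 2 GC boxes and no STAT match, 58% G or C and 15 CpG sites. The one promoter entry each of Cbx6, Cbx7 and Cbx8 held 1 to 3 GC boxes and 24 to 33 CpG sites. The Phc2 entries held 1, 0 and 6 GC boxes, and 19, 2 and 45 CpG sites. A window without a GC box was thus not particular to Phc1. Over all 32851 promoters of the table the medians were 52.7% G or C and 7 CpG sites, 35.7% held a GC box and 8.3% a STAT match. The STAT match of Phc1 overlaps a match to TGGGAA, which 25.6% of promoters held, and the Phc3 window also has 1 match to it. These are letters in a window, and binding was not measured.

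Phc2 and Phc3, the other PHC genes, were higher in clones 8 and 15 and not in clone 11. Phc2 was at 12.8, 10.2 and 9.47 TPM in uninduced wild-type replicates 1, 2 and 3, and at 28.2, 10 and 19.9 TPM in uninduced clones 8, 11 and 15. After induction it was at 10.9, 8.9 and 8.24 TPM in the wild type and at 27.6, 10.8 and 14.8 TPM in the clones. The groups overlapped through clone 11, and the log2 fold changes of 0.67 (SE 0.33, adjusted p=0.28) uninduced and 0.75 (SE 0.34, adjusted p=0.211) induced did not pass in edgeR. Phc3 was at 3.67, 3.4 and 2.63 TPM in uninduced wild-type libraries and at 7.05, 3.26 and 6.78 TPM in uninduced clones 8, 11 and 15. After induction it was at 3.81, 3.02 and 3.58 TPM and at 6.33, 3.04 and 8.47 TPM. Its log2 fold changes of 0.67 (SE 0.29, adjusted p=0.248) and 0.62 (SE 0.32, adjusted p=0.25) did not pass in edgeR either. These changes depended on single clones. Without clone 8 those of Phc2 were 0.31 uninduced and 0.27 induced, and without clone 15 the induced change of Phc3 was 0.37. Without clone 11 the change of Phc3 was 0.90 in both states, with an adjusted p of 0.0465 uninduced and 0.0299 induced, below 2-fold. In those fits 1746 of 15015 genes uninduced and 2569 of 14636 induced had an adjusted p under 0.05. With all clones these counts were 0 of 14646 and 4 of 14143. Clones 8 and 15 above every wild-type library with clone 11 within their range, in both states, held for 2 of 7 genes (Phc2, Phc3) and for 5.72% of all tested genes. This clone pattern was noticed after the values were seen and was given no test.

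The surroundings of the 2 genes differed. Phc3 lies on chromosome 3 (30899371 to 30969415, reverse strand), and the median ratio of the other 522 expressed genes of that chromosome to the uninduced wild-type mean was 1.55, 0.971 and 1.78 in uninduced clones 8, 11 and 15, where Phc3 was at 2.18, 1.01 and 2.1. Over all 11801 expressed genes the median was 1.09, 0.98 and 1.15. Its 7 neighbours within 1 Mb were at 2.03, 1.05 and 2.23. Phc3 thus stood near its neighbours in each clone and shared the clone pattern of its chromosome. Divided by that median, its ratio spanned 0.991 to 1.47 in ΔCdk8 and 0.828 to 1.21 in wild-type libraries, which overlap. Phc2 lies on chromosome 4 (128654702 to 128752881, forward strand). Its ratios were 2.6, 0.926 and 1.84 where its 27 neighbours were at 1.06, 0.98 and 1.04 and the rest of its chromosome at 1.07, 0.973 and 1.14. The summed trophoblast markers were also higher in clones 8 and 15 (254 and 575 TPM) than in clone 11 (86.5 TPM) in uninduced conditions, and 5 of the 6 had a mean of 1 TPM or more in uninduced ΔCdk8 cells. None of the 6 had an unadjusted p under 0.05 between the genotypes, and the largest change was that of Elf5 (2.06, SE 1.45, adjusted p=0.414). Wild-type replicate 1 had the highest sum of the wild type in both states (187 and 222 TPM) and also its highest Phc2 level. Their part in the levels of Phc2 and Phc3 was not tested.

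**Figure D2:**
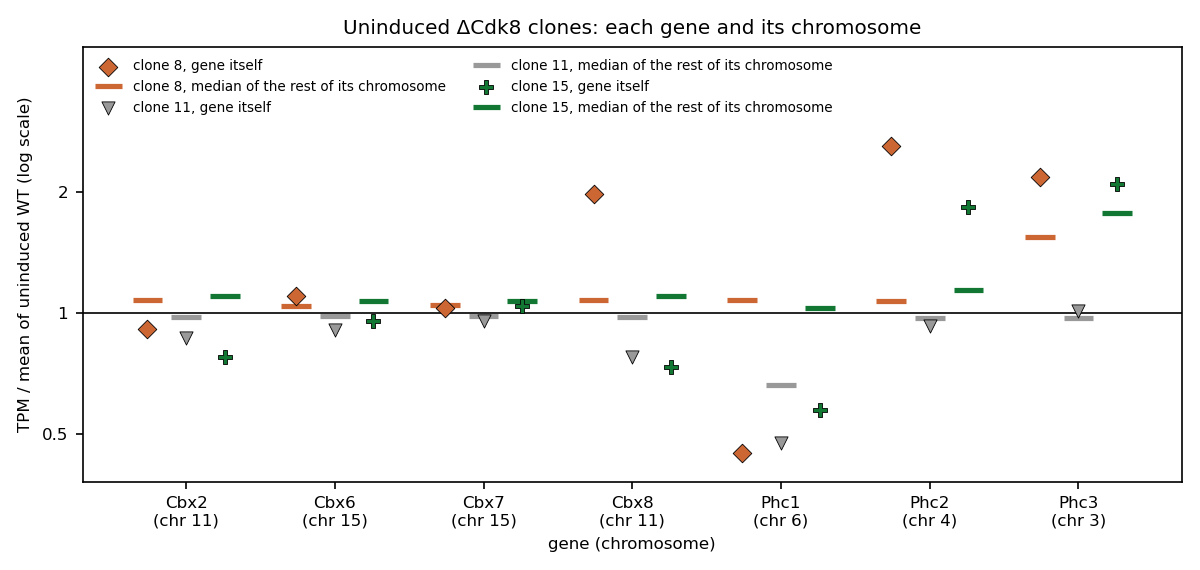
Ratio of the TPM in uninduced ΔCdk8 clones to the mean of uninduced wild-type cells (y axis, log scale) for each gene (symbols) and the median over the other expressed genes of its chromosome (short bars). Phc1 lies below its chromosome in clones 8, 11 and 15, Phc3 has the clone pattern of chromosome 3 (medians 1.55, 0.971 and 1.78), and Phc2 in clones 8 and 15 (2.6 and 1.84) lies above the medians of chromosome 4 (1.07 and 1.14).

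Summed over the 3 genes, the PHC level was 520±48.7 TPM in uninduced wild-type and 277±33.9 TPM in uninduced ΔCdk8 cells, and 556±73 and 291±27.5 TPM after induction. The sum followed Phc1, which made up 97.3±0.711% of it in uninduced wild-type and 91±4.15% in uninduced ΔCdk8 cells. The share of Phc2 was 2.12±0.56% and 7.01±3.47%, and that of Phc3 0.63±0.158% and 2.04±0.71%. For all 3 genes the shares of the genotypes did not overlap in either state (two-sided exact permutation p=0.1, the smallest that 3 against 3 samples can give, adjusted p=0.156 over 14 such tests of shares). Since Phc1 makes up most of the sum, a lower Phc1 level alone raises the shares of the other 2 genes, and in clone 11 the TPM of both lay inside the wild-type range in either state. The higher Phc2 and Phc3 levels of clones 8 and 15 were small beside the lower Phc1 level, so that the highest ΔCdk8 sum (320 TPM) lay below the lowest wild-type sum (466 TPM).

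**Figure D3:**
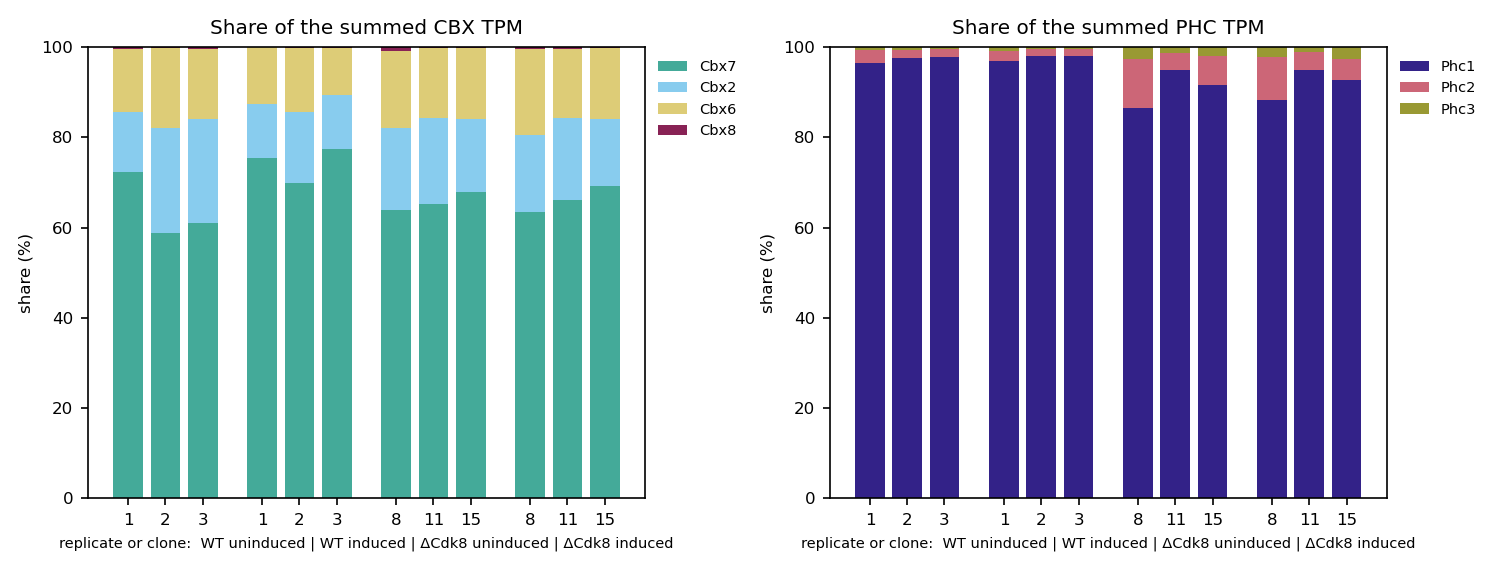
Share of each gene in the summed TPM of the 4 CBX genes (left) and the 3 PHC genes (right), in percent (y axis), with 1 bar per library ordered by group and replicate or clone (x axis). Cbx7 takes 58.7 to 77.5% of the CBX sum, and Phc1 takes 96.5 to 98.1% of the PHC sum in wild-type and 86.5 to 94.8% in ΔCdk8 libraries.

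Cbx7, which lies on chromosome 15 (79915807 to 79971119, reverse strand) 81118 bp from Cbx6, overlapped between the genotypes without Xist. It was at 97.1, 103 and 103 TPM in uninduced wild-type replicates and at 104, 96.5 and 105 TPM in uninduced clones 8, 11 and 15. The log2 fold change was -0.13 (SE 0.12, adjusted p=0.544). After induction Cbx7 was at 82.3, 112 and 128 TPM in the wild type and at 85.8, 92.8 and 81.2 TPM in the clones, and the groups overlapped through wild-type replicate 1 (log2 fold change -0.46, SE 0.22, adjusted p=0.221). The summed CBX level was 159±21.9 TPM in wild-type and 155±7.44 TPM in ΔCdk8 cells uninduced, and 145±30.8 and 131±12.1 TPM induced. Cbx7 held 64±7.29% and 65.6±2% of it uninduced. After induction it held 74.2±3.91% in wild-type against 66.3±2.95% in ΔCdk8 cells, without overlap (exact permutation p=0.1, adjusted p=0.156). The induced shares of Cbx6 (12.4±1.81% against 16.6±2%) and Cbx8 (0.14±0.0212% against 0.43±0.135%) did not overlap either, with the same p, and were higher in ΔCdk8 cells. Shares of the same sum move together.

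Cbx2, the CBX subunit best known for compacting chromatin, varied most between wild-type replicates relative to its mean. It was at 17.7, 40.9 and 38.9 TPM in uninduced replicates 1, 2 and 3 and at 29.7, 28.1 and 25.2 TPM in uninduced clones 8, 11 and 15, so that the clones lay inside the wild-type range (log2 fold change -0.38, SE 0.32, adjusted p=0.479). After induction it was at 13.2, 25.3 and 19.5 TPM and at 23.2, 25.5 and 17.3 TPM (log2 fold change 0.03, SE 0.33, adjusted p=0.954). Replicate 1 was the lowest wild-type library in both states, as it was for the primed epiblast markers. Without replicate 1 the uninduced log2 fold change was -0.69. Cbx6 gave much the same picture, with 18.9, 30.9 and 26.2 TPM in uninduced wild-type and 27.9, 22.9 and 24.2 TPM in uninduced ΔCdk8 libraries (log2 fold change -0.15, SE 0.20, adjusted p=0.676). After induction it was at 13.6, 22.6 and 17.3 TPM and at 25.5, 21.4 and 18.3 TPM (log2 fold change 0.17, SE 0.25, adjusted p=0.682).

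The Cbx6 values carry a limit of annotation. Of the Cbx6 gene (chromosome 15, 79823896 to 79834688, reverse strand), 10342 bp or 95.8% lie inside the gene Npcd, and 0.357% of the Cbx6 reads were counted as unique, against 99.6% for Cbx7 and 100% for the other 5 genes. How reads were divided between Cbx6 and Npcd can therefore alter the Cbx6 counts. The tables gave Npcd 27, 0 and 7 reads in uninduced clones 8, 11 and 15, 84, 0 and 5 after induction, and at most 1 in each wild-type library, against 1136 to 4115 for Cbx6.

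Cbx8 lies 5034 bp from Cbx2 on chromosome 11, on the opposite strand (Cbx2 from 119022962 to 119031270, Cbx8 from 119036305 to 119040969), and had the lowest level of the 7 genes. In uninduced conditions it was at 0.63, 0.498 and 0.644 TPM in the wild type and 1.17, 0.459 and 0.433 TPM in clones 8, 11 and 15. After induction it was at 0.152, 0.19 and 0.266 TPM in the wild type, which are 7, 6 and 16 reads, and at 0.786, 0.547 and 0.375 TPM in the clones, which are 68, 26 and 14 reads. The genotypes overlapped only in uninduced conditions. The induced log2 fold change of 1.38 (SE 0.54, adjusted p=0.165) did not pass in edgeR, and DESeq2 gave an adjusted p of 0.197. In this comparison and on induction in the wild type, Cbx8 passed the filter on low counts only through the group where it was higher.

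**Figure D4:**
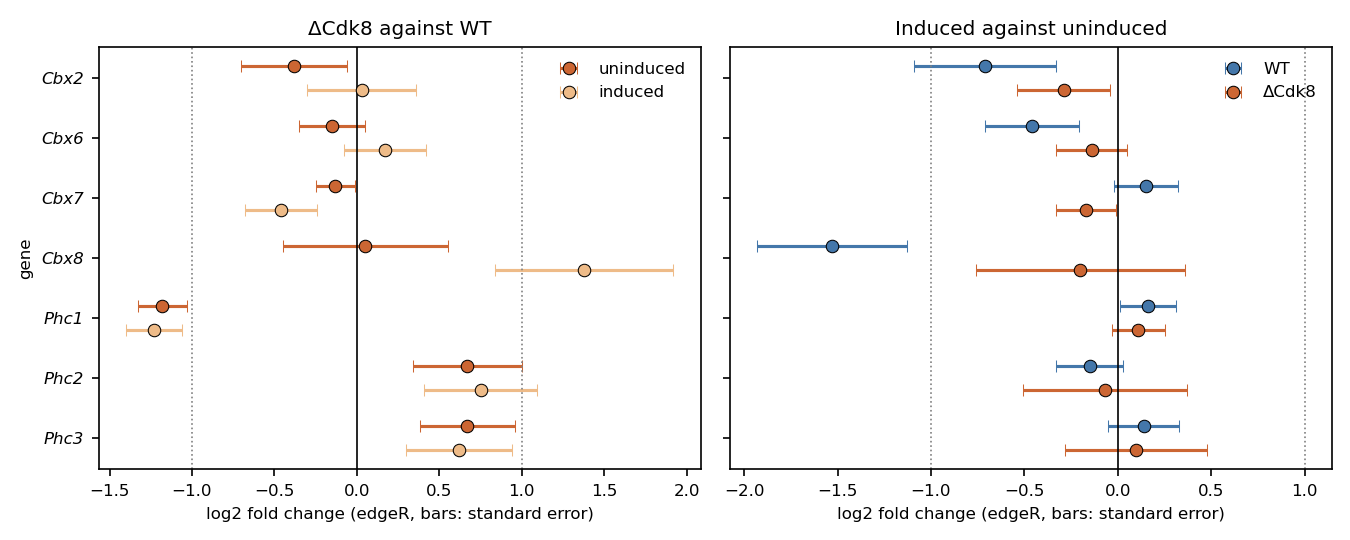
Log2 fold changes (x axis) from edgeR for each gene (y axis), with standard errors as bars. The left panel compares ΔCdk8 with wild-type cells in uninduced and induced conditions, the right panel induced with uninduced cells of each genotype, and dotted lines mark 2-fold. In the left panel Phc1 lies beyond 2-fold lower in both states (-1.18 and -1.23) and Cbx8 beyond 2-fold higher after induction (1.38). In the right panel only Cbx8 in the wild type lies beyond 2-fold (-1.53).

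After Xist expression the TPM of Cbx2, Cbx6, Cbx8 and Phc2 was below the uninduced value in each of the 3 wild-type replicates, 4 of 7 genes where 29.4% of all tested genes were. The difference was small for Phc2, which did not pass in any fit, and its intron reads gave the opposite direction (0.22, SE 0.33, adjusted p=0.842). The induced level of Cbx2 was 0.749, 0.619 and 0.501 times the uninduced level in wild-type replicates 1, 2 and 3, and 0.782, 0.908 and 0.688 times in clones 8, 11 and 15. For Cbx6 these ratios were 0.723, 0.731 and 0.661 in the wild type and 0.915, 0.934 and 0.758 in the clones. Both genes were thus lower after induction in 6 of 6 lines, as were 14.0% of all tested genes. Cbx8 was at 0.242, 0.382 and 0.414 times its uninduced level in wild-type replicates, and at 0.673, 1.19 and 0.866 times in the clones. Phc2 was at 0.847, 0.873 and 0.869 times its uninduced level in the wild type and at 0.98, 1.08 and 0.744 times in the clones, and Phc3 at 1.04, 0.889 and 1.36 and at 0.899, 0.93 and 1.25 times. Phc1 was slightly higher after induction in 6 of 6 lines, at 1.02 to 1.12 times its uninduced level, as were 9.93% of all tested genes.

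Without pairing, none of the 7 genes passed the threshold of edgeR on induction in the wild type, where 1.16% of all genes did, and DESeq2 called none of them either, against 4.73% of all genes. In edgeR an adjusted p under 0.05 was reached by none of the 7 and by 4.56% of all genes, and an unadjusted p under 0.05 by Cbx8 alone and by 21.2% of all genes. In DESeq2 Cbx8 had an adjusted p of 0.0486, and 13.1% of all genes had one under 0.05. The log2 fold changes were -0.71 (SE 0.38, adjusted p=0.34) for Cbx2, -0.46 (SE 0.25, adjusted p=0.347) for Cbx6 and -1.53 (SE 0.40, adjusted p=0.0854) for Cbx8, the 1 gene of 7 without overlap between the states (26.3% of all genes). With the replicate number as a block, which the samples support, all 3 had an adjusted p under 0.05 (Cbx2 -0.68, SE 0.11, adjusted p=0.0103, Cbx6 -0.46, SE 0.07, adjusted p=0.00979, and Cbx8 -1.55, SE 0.41, adjusted p=0.0442). The paired log2 fold change of Phc2 was -0.14 (SE 0.09, adjusted p=0.312), and those of Phc1, Phc3 and Cbx7 were 0.15, 0.16 and 0.13 (adjusted p=0.156, 0.489 and 0.429). A share of 23.0% of all genes had an adjusted p under 0.05 in this paired fit, and Cbx2 and Cbx6 stayed under 2-fold. In the clones, none of the 7 passed in edgeR without pairing (0% of all genes did) or in DESeq2 (0.243% of all genes), and none had an unadjusted p under 0.05 (2.64% of all genes). With the clone as a block, Cbx2 alone of the 7 had an adjusted p under 0.05 (-0.32, SE 0.09, adjusted p=0.0261), where 11.8% of all genes had one. Cbx7 did not overlap between the states in the clones, 1 of 7 genes where 5.25% of all genes showed no overlap, and its paired log2 fold change was -0.18 (SE 0.07, adjusted p=0.125). The paired changes of the other 5 genes in the clones lay between -0.18 (Cbx8) and 0.12 (Phc1), with adjusted p from 0.248 to 0.791.

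The difference between the genotypes in the response to Xist was tested itself. No gene of the 7 had an adjusted p under 0.05 for the interaction in edgeR, and 0% of all genes had one. Without the block, none had an unadjusted p under 0.05 (3.88% of all genes), and DESeq2 called none (0.218% of all genes). With the block the interaction was 0.33 (SE 0.10, adjusted p=0.0953) for Cbx6, 0.38 (SE 0.15, adjusted p=0.166) for Cbx2 and 1.40 (SE 0.51, adjusted p=0.141) for Cbx8, where 6.01% of all genes had an adjusted p under 0.05. For Cbx7, Phc1, Phc2 and Phc3 it was -0.29, -0.01, 0.08 and -0.08, with adjusted p from 0.231 to 0.946. Cbx6, Cbx2 and Cbx8 had an unadjusted p under 0.05 in the paired fit, as had 22.7% of all genes. The larger log2 changes of these 3 genes in the wild type are therefore not shown to differ from those of the clones. The primed epiblast markers, too, were lower after induction in the wild type, with a median log2 fold change of -1.33 (4 of 7 called lower in the paired fit, against 2.48% of all genes). In the clones their median was -0.52 (3 of 7 called lower in the paired fit, against 1.27% of all genes). Their part in the response of Cbx2, Cbx6 and Cbx8 was not tested.

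**Figure D5:**
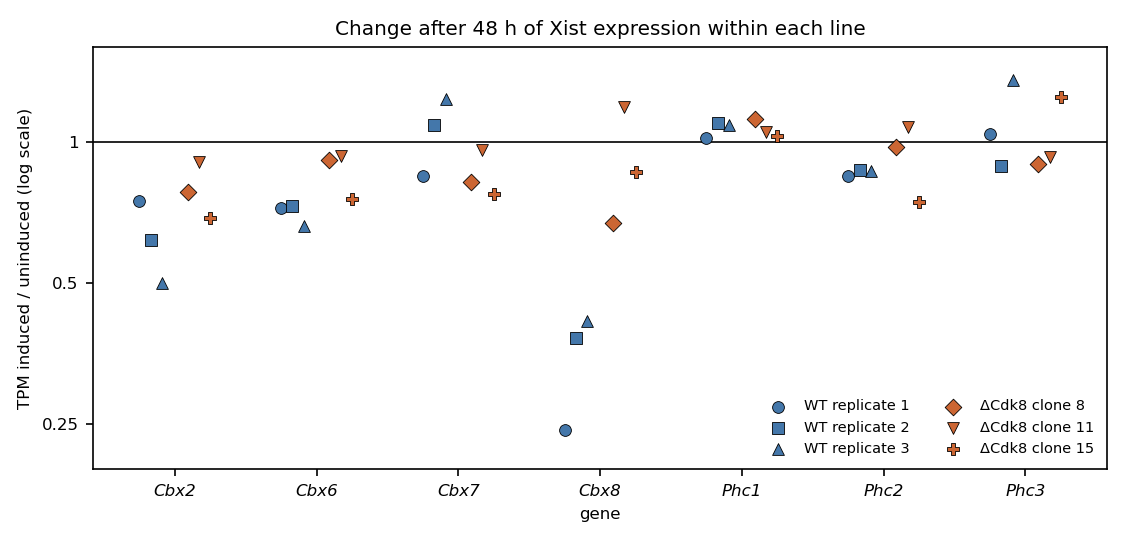
TPM after 48 h of Xist expression divided by the uninduced TPM of the same replicate or clone (y axis, log scale) for each gene (x axis). Blue symbols are wild-type replicates and orange symbols ΔCdk8 clones. Cbx2 and Cbx6 lie below 1 in all 6 lines, Cbx8 lies at 0.242 to 0.414 in the wild type and at 0.673 to 1.19 in the clones, and Phc1 lies at 1.02 to 1.12.

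The other genes of the Polycomb system gave no edgeR call between the genotypes, where 0% of all tested genes were called in either state. Of 20 genes for other PRC1 subunits, 4 had an unadjusted p under 0.05 in uninduced conditions, 2 of them higher and 2 lower in ΔCdk8 cells. This share is near the 20.4% of all genes, and their median log2 fold change was -0.11 (0.03 over all genes). The largest change was that of Bcor, the X-linked co-repressor of a variant PRC1, with 29.1±7.65 TPM in wild-type and 14.6±3.83 TPM in ΔCdk8 cells (-1.13, SE 0.30, adjusted p=0.154). Of 12 PRC2 genes, 2 had such a p, both lower, with a median of -0.07, which is again no larger a share than that of all genes. The largest change among them was that of Phf19, a subunit that recruits PRC2 (0.79, SE 0.40, adjusted p=0.296). The HP1 genes Cbx1, Cbx3 and Cbx5 share the chromodomain with the CBX genes and encode heterochromatin proteins, of which CBX3 is also known from a variant PRC1. Of these 3, 2 had such a p, both lower, a larger share than the 20.4% of all genes in a list not tested as a set. Cbx1 was at 235±4.86 TPM in wild-type and 167±15.2 TPM in ΔCdk8 cells (-0.62, SE 0.16, adjusted p=0.148). DESeq2 called no gene of the 3 lists in this state, against 2.64% of all genes.

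After induction, 5 of the 20 other PRC1 genes had an unadjusted p under 0.05, a share near the 25.9% of all genes. DESeq2 called 5.81% of all genes in this state. Among the other PRC1 genes that DESeq2 called higher in ΔCdk8 cells was Bcorl1, an X-linked relative of Bcor, at 0.394±0.0814 TPM in wild-type and 1.61±0.26 TPM in ΔCdk8 cells (1.97, SE 0.37, edgeR adjusted p=0.0562, DESeq2 adjusted p=2.93e-05). Of the 12 PRC2 genes, 5 had an unadjusted p under 0.05, 1 higher and 4 lower, and of the 3 HP1 genes 2 had one, both lower. Both shares are above the 25.9% of all genes, in short lists that were not tested as sets. Of the PRC2 genes DESeq2 called Phf1 alone, a PRC2 cofactor, with 15±2.36 TPM in wild-type and 6.55±1.64 TPM in ΔCdk8 cells (-1.33, SE 0.26, edgeR adjusted p=0.0569, DESeq2 adjusted p=2.13e-05). Of 28 developmental regulators known as Polycomb targets, 13 passed the filter on low counts in each genotype comparison. In uninduced conditions 2 of the 13 had an unadjusted p under 0.05, both higher in ΔCdk8 cells, and the median log2 fold change was 0.19. The largest change was that of Gata4, an endoderm factor that is also a primitive endoderm marker, with 0.611±0.489 TPM in wild-type and 3.2±1.94 TPM in ΔCdk8 cells. After induction 3 of the 13 had one, 2 higher and 1 lower, with a median of 0.44. Neither share exceeds those of all genes (20.4% and 25.9%). None was called by edgeR in either state, and DESeq2 called 1 of them higher after induction.

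For each of the 7 genes the 2 genes with the most similar pattern over the 12 libraries were sought among 9597 genes with a mean of at least 5 TPM, by the root mean square difference of centred log2(TPM+1) values. For Phc1 they were Gclc, which encodes a subunit of the enzyme that starts glutathione synthesis (difference 0.122), and Emg1, a ribosome assembly factor on the same chromosome (0.169). Emg1 was at 592±67 TPM in uninduced wild-type and 348±6.44 TPM in uninduced ΔCdk8 cells. For Phc3 they were Intu on the same chromosome (0.0903) and Ccdc138 (0.102), and for Phc2 Rilpl2 (0.167) and Cdkn2d (0.171), an inhibitor of cyclin-dependent kinases. Cbx2 was nearest to Ogfr (0.145) and Pdlim7 (0.191), and Cbx6 to A430005L14Rik (0.109) and Pus1 (0.123). Cbx7 was nearest to Mcm3 (0.0977), a subunit of the replicative helicase, and Chrac1 (0.1). For Cbx8 they were Cdk5 (0.119) and Dctn3 (0.13), but its level of 0.152 to 1.17 TPM lies around the added 1, which flattens its pattern. These are descriptions over libraries that share replicates and clones.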

How the data were processed

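The 12 libraries came from wild-type replicates 1, 2 and 3 and from ΔCdk8 clones 8, 11 and 15, with and without 48 h of Xist expression. The authors selected polyadenylated RNA, made stranded libraries and aligned the reads in the CLC Genomics Workbench (builds GRCm38 and mm10 per the labels). The strand setting of the counting is not given in the sources used here. Per the file headers, the deposited counts are unnormalized numbers of reads on each gene, in total, unique, on exons, on introns and on junctions. The deposited TPM values are levels per exon length scaled within each library by the authors. The deposited RPKM values and the deposited fraction columns (unique over total exon reads, intron over total gene reads) were not used. Gene positions came from the annotation of GRCm38 and promoters from RefSeq.

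Total gene reads were tested with edgeR 4.0.16 under R 4.3.3 (TMM factors, filterByExpr at min.count 10 and min.total.count 15, quasi-likelihood test, Benjamini-Hochberg over all genes). Intron and exon reads, DESeq2 1.42.0, a replicate block, other filters and scalings, all 12 samples together and each library left out were alternatives. TMM over autosomal genes was added after seeing the data. Standard errors are the log2 fold change over the root of F. Ratios, shares and neighbours (mean of at least 1 TPM) were computed from TPM in Python 3.11.15 with numpy 2.4.6, pandas 2.3.3 and scipy 1.17.1, and figures drawn with matplotlib 3.10.9. All p-values are two-sided. The fits were tested on simulated data. Same-numbered libraries deviated together (correlations 0.554 to 0.678 in the wild type and 0.836 to 0.901 in ΔCdk8, over 14661 genes), and the clone number marks 1 cell line, so the numbers were taken to pair the samples.

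The 7 genes and all gene lists were chosen with earlier results of these data known. All 7 genes are reported. Of each list, the gene with the largest change between the genotypes in uninduced conditions is named. Nanog, Esrrb and genes called by DESeq2 or the paired fit were added after their values were seen. Some genes chosen this way are not reported here.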

Additional observations from a re-analysis of the deposited data

How the results depend on the processing

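The 35 changes (7 genes in 5 comparisons) were recomputed as 609 values under the alternatives, and 576 kept their direction. The number of the 7 genes called was 0 in each comparison and moved to 1, in each case Phc1, with DESeq2 in both genotype comparisons and with all 12 samples in 1 fit in the induced one. None of the 33 reversed log2 fold changes was called. With intron reads they were -0.23 (Cbx2, genotype, induced), 0.22 (Phc2, induction, wild type) and -0.36 (Phc2, interaction), and with exon reads 0.00 (Phc1, interaction). The others came from leaving out 1 library. Those ranges were -0.33 to 0.02 (Cbx6) and -0.52 to 0.31 (Cbx8) for genotype uninduced, -0.20 to 0.29 (Cbx2) and -0.01 to 0.36 (Cbx6) for genotype induced, -0.03 to 0.29 (Cbx7) and -0.03 to 0.23 (Phc3) for induction in the wild type, -0.48 to 0.37 (Cbx8), -0.56 to 0.30 (Phc2) and -0.19 to 0.38 (Phc3) for induction in the clones, and -0.16 to 0.06 (Phc1), -0.39 to 0.47 (Phc2) and -0.33 to 0.23 (Phc3) for the interaction. The cause was not tested. Without clone 8 the uninduced change of Cbx8 was -0.52, against 0.05 with it.

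Phc1 kept its direction in every alternative of both genotype comparisons, from -1.55 to -1.09 uninduced and from -1.85 to -1.14 induced. Its adjusted p in edgeR ranged from 0.0248 to 0.501 and from 0.016 to 0.27 when 1 library was left out.

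Over all genes, the calls in edgeR and DESeq2 were 0 and 386 for genotype uninduced, 0 and 822 for genotype induced, 162 and 662 for induction in the wild type, 0 and 36 in the clones, and 0 and 33 for the interaction. With the replicate block the last 3 were 553, 208 and 151, and with all 12 samples in 1 fit the genotype comparisons gave 5 and 145. In the wild type, 54 genes were called on intron reads and 0 to 124 when 1 library was left out, and leaving out clone 11 gave 54 for genotype induced. Pairing changed no call of the 7 genes at the 2-fold threshold.

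Depth limits Cbx8, with 6 to 96 reads per library, and counting limits Cbx6, whose gene overlaps Npcd. Each ΔCdk8 sample is a single clone, and effects of cloning and of the mutation cannot be told apart.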
